A study of Mus musculus with 4 samples.

Results

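The interferon-induced GTPases described here are 8 mouse genes: Gbp2 and Gbp3 of the guanylate-binding protein (Gbp) family, and Igtp, Iigp1, Ifi47, Tgtp1, Irgm1 and Irgm2 of the immunity-related GTPase (Irg) family. They were chosen by name, through the gene symbol or the RefSeq accession of each probe, and all 8 were measured among 27670 genes with a probe on the array. The cells under study were 4TO7 cells, a mouse mammary tumour line of BALB/cfC3H background, that stably carried the retroviral vector pMSCV with the microRNA cluster miR-23b/27b/24. Their controls were 4TO7 cells stably carrying the vector pMSCV-puro alone. There were 2 arrays per group, called transfection replicates in the series, and all cells were grown in culture with no interferon or other stimulus named in the labels. On every array cell RNA was labelled with Cy5 and a common reference, a mix of RNA from 11 mouse cell lines, with Cy3. Levels of the microRNAs themselves were not analysed here. The question the design poses is what overexpression of the cluster changes in these cells. The sources used here do not say whether a group was 1 clone or a pool. The 2 arrays of a group may differ for technical reasons alone, and p-values measure the spread between them.

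Interferons bind receptors at the cell surface and switch on genes through transcription factors such as STAT2 and IRF9. The GTPases of both families are among the most strongly induced genes of this response in mouse cells. They collect on the membrane around intracellular parasites and bacteria, such as the vacuole of Toxoplasma, and break it open. Within the Irg family, Irgm1, Irgm2 and Igtp (also called Irgm3) are the regulators: they sit on the cell's own membranes and keep the effectors inactive there. Iigp1 (Irga6), Tgtp1 (Irgb6) and Ifi47 (Irgd) are effectors that load onto the vacuole. Gbp2 is recruited to the same vacuoles, and Gbp3 is a further member of the Gbp cluster on chromosome 3.

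In promoter sequence most of these genes have an element in common that many other interferon-induced genes listed here also hold. Type I interferon acts through the interferon-stimulated response element (ISRE), searched here on both strands by its core, GAAA, any 2 bases and GAAA, which reads TTTC, any 2 bases and TTTC on the other strand. Interferon gamma acts through the gamma-activated site (GAS), searched by its core, TTC, any 3 bases and GAA, which reads the same on both strands. RefSeq promoter windows of GRCm38.p6, from 250 bases before to 50 after the annotated start, were matched for 7 of the 8 genes, all but Iigp1. Of these 7, 6 held an ISRE core and 3 a GAS core. Among antiviral effector genes induced by interferon, 8 of 11 held an ISRE core and 3 a GAS core. Of 9 other GTPase genes listed beside these 8, 6 held an ISRE core and 4 a GAS core. The ISRE core was in 3.44% of all 32851 windows and the GAS core in 8.30%. By gene, an ISRE core was found in 3.83% of the 12790 tested genes with a window, in 6.92% of 650 genes called lower in miR-23b/27b/24 cells and in 2.18% of 597 called higher. For the GAS core these shares were 8.66%, 8.77% and 7.20%.

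The 6 stretches with a match are shown because they carry this shared element. Each has 70 bases of GRCm38.p6 and is written 5′ to 3′ on the gene's strand, with ISRE and GAS cores in capitals.
Gbp2, chr3:142620573-142620642, plus strand: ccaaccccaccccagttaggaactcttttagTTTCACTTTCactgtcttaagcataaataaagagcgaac
Gbp3, chr3:142559971-142560040, plus strand: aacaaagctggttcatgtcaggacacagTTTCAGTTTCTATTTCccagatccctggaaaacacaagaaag
Igtp, chr11:58199486-58199555, plus strand: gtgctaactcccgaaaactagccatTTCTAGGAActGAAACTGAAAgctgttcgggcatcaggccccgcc
Irgm2, chr11:58214882-58214951, plus strand: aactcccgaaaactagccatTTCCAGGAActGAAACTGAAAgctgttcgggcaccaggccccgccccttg
Tgtp1, chr11:48992285-48992354, minus strand: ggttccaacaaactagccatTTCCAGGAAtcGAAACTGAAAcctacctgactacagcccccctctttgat
Irgm1, chr11:48871421-48871490, minus strand: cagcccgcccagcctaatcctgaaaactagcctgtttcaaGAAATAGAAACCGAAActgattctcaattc

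All 8 ISRE matches in these stretches lay between 77 and 15 bases before the annotated start. Gbp3 had 2 windows in the table, of which 1 held matches. Gbp3 and Irgm1 each held 2 overlapping ISRE cores, and the other 4 held 1. In Igtp, Irgm2 and Tgtp1 a GAS core (first run of capitals) preceded the ISRE core, with 2 bases between them in all 3. In Gbp2 and Gbp3 the ISRE letters were on the opposite strand, so that the stretch reads TTTC, 2 bases and TTTC. The windows of Igtp and Irgm2 were 92.1% identical over 265 aligned bases, so their shared arrangement is not independent. The Tgtp1 stretch has the same letters as these just before its GAS core, and the same ISRE letters. Its window was not aligned with theirs, so it is not shown to be an independent case. The windows of Tgtp1 and its close relative Tgtp2 were 79.4% identical over 267. The window of Ifi47 held neither core, which says only that these letters are not in those bases.

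**Figure D1:**
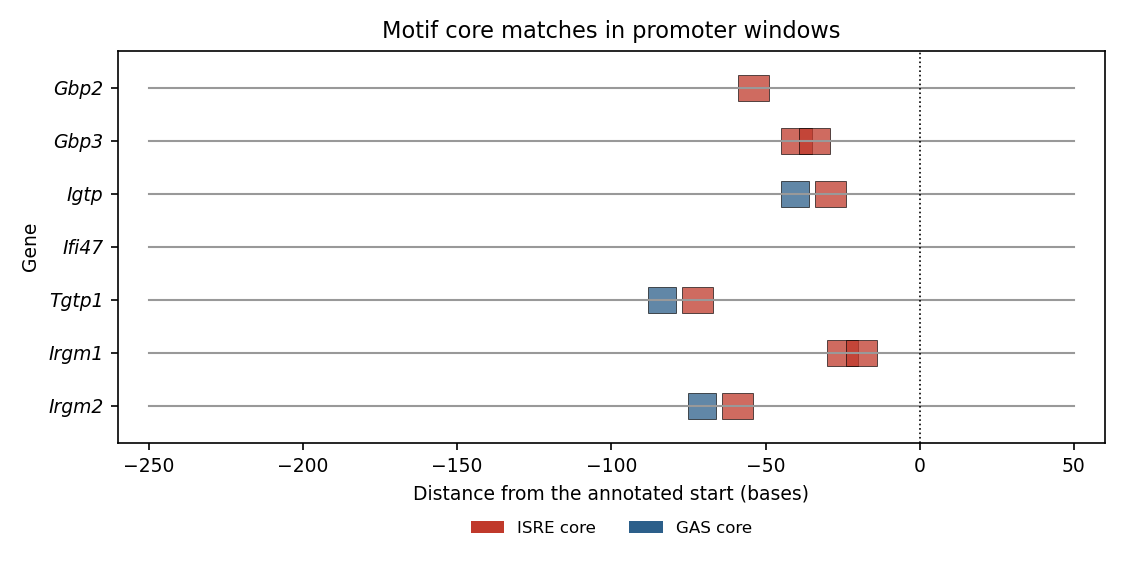
Positions of ISRE (red) and GAS (blue) core matches, in bases from the annotated start (dotted line), in the promoter windows of 7 of the GTPase genes. The matches lie close before the start in 6 genes, and the Ifi47 window has none.

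The overexpressed cluster encodes miR-23b, miR-27b and miR-24. These mature sequences from RefSeq, with the seed (bases 2 to 8) in capitals, identify 2 of its products, and their seeds differ.
mmu-miR-27b-3p: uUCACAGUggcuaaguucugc
mmu-miR-24-3p: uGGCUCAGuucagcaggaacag

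All values that follow are log2 ratios of cell RNA (Cy5) over reference RNA (Cy3), so that 0 is a level equal to the reference and a difference of 1 is a 2-fold difference. A gene was called lower or higher where the Benjamini-Hochberg adjusted p of limma, taken over all 20498 genes tested, was under 0.05. Between 69.9% and 74.8% of probes were well above background in Cy5. The 4 arrays lay on 1 slide in 1 scan. Over all genes the ratios of the miR-23b/27b/24 pair of arrays correlated at 0.952 and those of the vector pair at 0.887, against 0.629 to 0.725 between groups. The miR-23b/27b/24 arrays took positions 3 and 4 of the slide and the vector arrays positions 1 and 2, so position and group cannot be told apart.

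The mean ratio of each of the 8 GTPases was lower in miR-23b/27b/24 cells than in vector cells, by 2.53-fold to 6.89-fold, and 6 of the 8 passed the test. Those called lower were Gbp3, Iigp1, Ifi47, Tgtp1, Irgm1 and Irgm2, and none was called higher. Over all genes tested, 4.64% were called lower and 4.78% higher, or 9.42% either way. Gbp2 and Igtp did not pass. For all 8 both miR-23b/27b/24 arrays were below both vector arrays, an order that 32.3% of all genes tested showed. The median log2 fold change of the 8 was -2.07, against -0.03 over all genes tested. The adjusted p-values of the 6 calls ran from 0.0359 to 0.0420, close to the threshold, and all 6 were lost when either miR-23b/27b/24 array was left out. They were also lost (0 of 8, adjusted p from 0.0593 to 0.185) when every local background was used as measured, and 2 (Irgm1 and Irgm2) remained with median centring in place of loess, while all 8 log2 fold changes stayed negative in each of the 15 alternative settings.

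**Figure D2:**
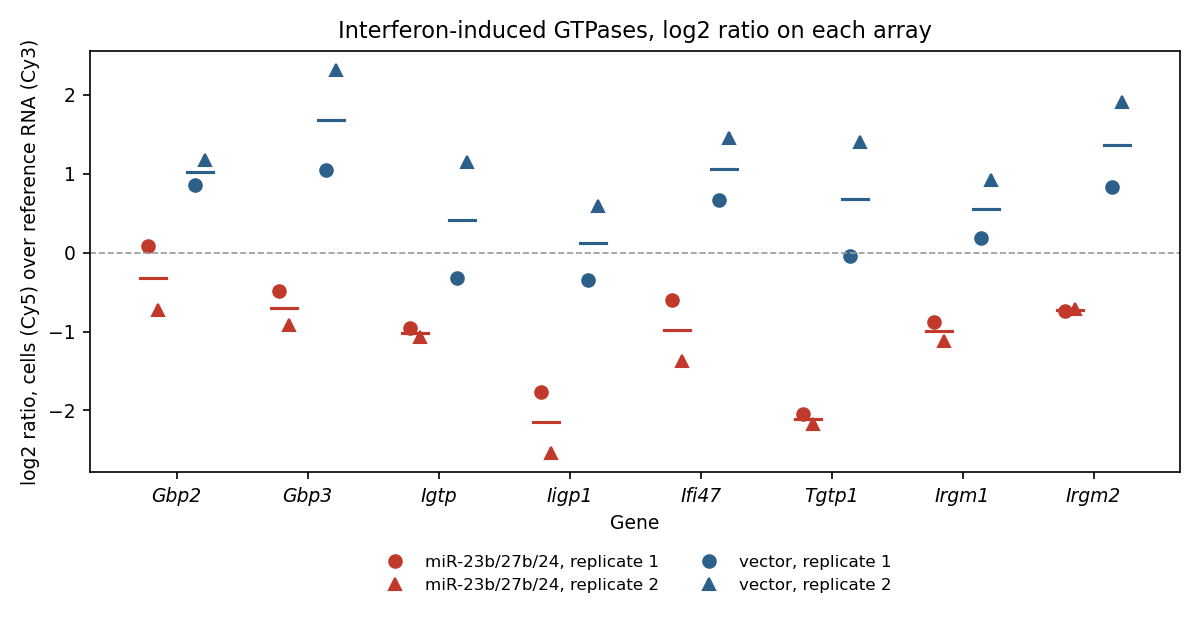
Log2 ratio of Cy5 over Cy3 on each array for the 8 genes, with miR-23b/27b/24 arrays (red) left of vector arrays (blue), circles for replicate 1, triangles for replicate 2 and bars for group means. Both red points lie below both blue points for every gene, and the blue triangle lies above the blue circle for every gene.

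Among the regulators, Irgm1 is required in mice for resistance to several intracellular bacteria and parasites. Its brightest probe (A_51_P262171, chr11:48822320-48822379 in mm7, the build the file headers name) read -0.87 and -1.12 in miR-23b/27b/24 cells, against 0.19 and 0.92 in vector cells. The groups did not overlap, and the log2 fold change was -1.55 ± 0.28 (SE, 95% interval -2.27 to -0.84, limma adjusted p = 0.0381). A second probe (A_52_P126158, chr11:48822670-48822729) read -0.81 and -1.11 in miR-23b/27b/24 cells, against 0.31 and 0.92 in vector cells. Its log2 fold change of -1.58 ± 0.25 (SE) was also called in the fit over all probes (limma adjusted p = 0.0265). The remaining Irgm1 probe, designed from another transcript record, was not well above background in Cy5 on any of the 4 arrays and was not tested.

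Irgm2, named Iigp2 in the files, read -0.74 and -0.72 in miR-23b/27b/24 cells, against 0.83 and 1.90 in vector cells (probe at chr11:58304107-58304166 in mm7). The miR-23b/27b/24 arrays were almost equal, while the vector arrays were 1.07 apart. Its log2 fold change was -2.10 ± 0.36 (SE, 95% interval -3.04 to -1.15, limma adjusted p = 0.0364).

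Igtp, the neighbour of Irgm2 on chromosome 11 (probe at chr11:58288970-58289029 in mm7), read -0.95 and -1.07 in miR-23b/27b/24 cells, against -0.33 and 1.15 in vector cells. Here the vector arrays lay 1.48 apart, the widest gap among the 8 genes, and the log2 fold change of -1.42 ± 0.49 (SE, 95% interval -2.70 to -0.15) was not called (limma adjusted p = 0.146). Without vector replicate 1 it was -2.16 and without vector replicate 2 it was -0.68. With 1 vector array left, the gap between the vector arrays no longer enters the spread, so no call is read from these fits.

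Among the effectors, Tgtp1 was read by a pair of probes that disagreed. Its brightest probe (A_52_P676510, chr11:48943424-48943483 in mm7) read -2.05 and -2.17 in miR-23b/27b/24 cells, against -0.04 and 1.40 in vector cells. The log2 fold change was -2.79 ± 0.48 (SE, 95% interval -4.03 to -1.54, limma adjusted p = 0.0359), and it was -3.51 without vector replicate 1 and -2.07 without vector replicate 2. On the Feature Extraction log ratio it was -3.61. In miR-23b/27b/24 cells this probe was dim, with mean Cy5 signals of 105.9 and 99.2 over local backgrounds of 36 and 34. In vector cells they were 582 and 1486 over 33 and 30. It was well above background on all 4 arrays. A second Tgtp1 probe (A_51_P478722, chr11:48942838-48942897) was dim on all 4 arrays, though well above background on each. Its mean Cy5 signals were 127 to 151 over local backgrounds of 30 to 35. It gave 0.02 and -0.02 in miR-23b/27b/24 cells, against 0.10 and 0.27 in vector cells. Its log2 fold change was -0.19 (95% interval -0.52 to 0.15) and was not called (limma adjusted p = 0.416 over all probes). Averaging the pair brought the gene's log2 fold change to -1.49. Tgtp1 has the close relative Tgtp2, so how far either probe reads each gene is uncertain.

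Iigp1, on chromosome 18, read -1.76 and -2.54 in miR-23b/27b/24 cells, against -0.34 and 0.59 in vector cells. Its spot was dim in miR-23b/27b/24 cells, with mean Cy5 signals of 130.6 and 66.9 over local backgrounds of 36 and 30.5, against 429.7 and 776 over 35 and 33.5 in vector cells. It was still well above background on all 4 arrays. The log2 fold change was -2.28 ± 0.41 (SE, 95% interval -3.34 to -1.22, limma adjusted p = 0.0388), and -3.43 on the Feature Extraction log ratio.

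Ifi47 read -0.60 and -1.37 in miR-23b/27b/24 cells, against 0.67 and 1.46 in vector cells (probe at chr11:49053428-49053487 in mm7). Both miR-23b/27b/24 arrays were below the level of the reference RNA and both vector arrays above it. The log2 fold change was -2.05 ± 0.38 (SE, 95% interval -3.02 to -1.07, limma adjusted p = 0.0407).

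Of the guanylate-binding proteins, Gbp3 (named Gbp4 in the files, probe at chr3:142466047-142466106 in mm7) read -0.49 and -0.92 in miR-23b/27b/24 cells, against 1.05 and 2.32 in vector cells. Its log2 fold change was -2.39 ± 0.45 (SE, 95% interval -3.55 to -1.23, limma adjusted p = 0.0420). This was the highest adjusted p among the 6 calls. Without vector replicate 1 the log2 fold change was -3.02 and without vector replicate 2 it was -1.76.

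Gbp2 (probe at chr3:142530694-142530753 in mm7) read 0.08 and -0.73 in miR-23b/27b/24 cells, against 0.86 and 1.18 in vector cells. It was the 1 gene of the 8 with a miR-23b/27b/24 array above the reference RNA, and its miR-23b/27b/24 arrays were 0.81 apart. The log2 fold change of -1.34 ± 0.30 (SE, 95% interval -2.13 to -0.55) was not called (limma adjusted p = 0.0634). It was -1.50 without vector replicate 1 and -1.18 without vector replicate 2.

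**Figure D3:**
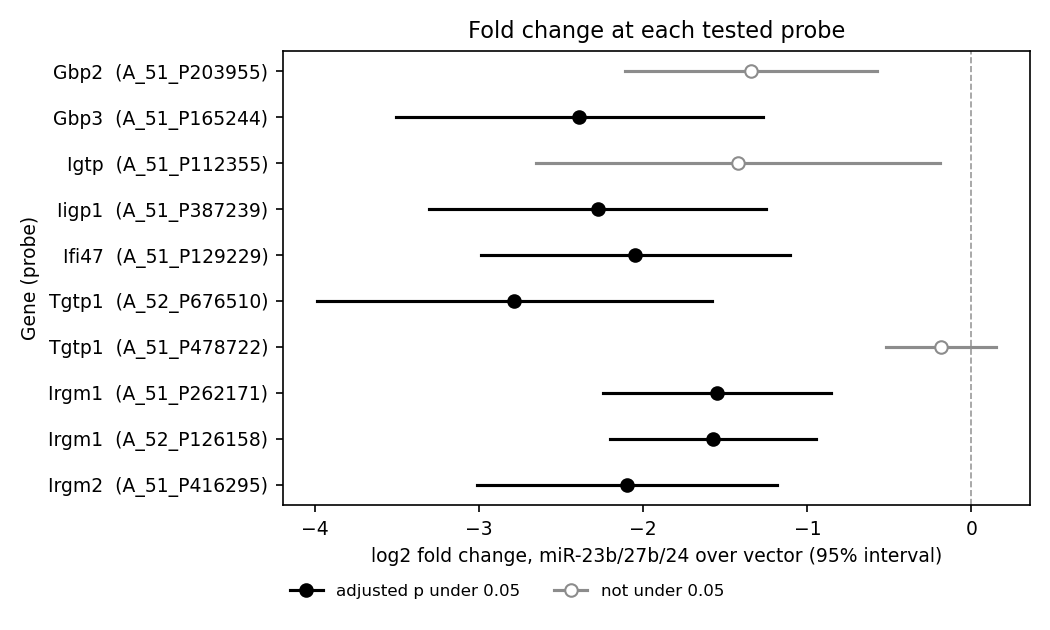
Log2 fold change of miR-23b/27b/24 over vector with its 95% interval at each of the 10 tested probes of the 8 genes, filled where the adjusted p over all probes was under 0.05. The intervals of all probes but the second Tgtp1 probe lie below 0.

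By probe, 7 of the 10 tested were called lower, against 4.44% of all 30035 probes tested, and all 10 had both miR-23b/27b/24 arrays below both vector arrays, against 29.8%. The 95% intervals of the 8 genes overlapped in all 28 pairs, so no order among their fold changes is drawn. The Cy3 signal of each gene's probe varied over the 4 arrays by 0.06 to 0.27 in log2, less than the smallest gap of 0.62 between the nearest arrays of the groups. No run of more than 8 bases was shared between the 60-base probes of different members.

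The vector arrays differed from each other in a shared direction for these genes. Vector replicate 1 was below vector replicate 2 for all 8, by 0.32 (Gbp2) to 1.48 (Igtp) in log2 with a median of 1.00, while 48.4% of all genes tested were lower on replicate 1. Vector replicate 2 was above the reference RNA for 8 of the 8 genes and vector replicate 1 for 5. In miR-23b/27b/24 cells this held for 1 gene on replicate 1 and for 0 on replicate 2. Replicate 2 was below replicate 1 for 7 of the 8 in miR-23b/27b/24 cells, Irgm2 being the exception, by a median of 0.34 over the 8. The median log2 fold change of the 8 was -2.54 without vector replicate 1 and -1.61 without vector replicate 2. What set the vector arrays apart was not tested.

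**Figure D4:**
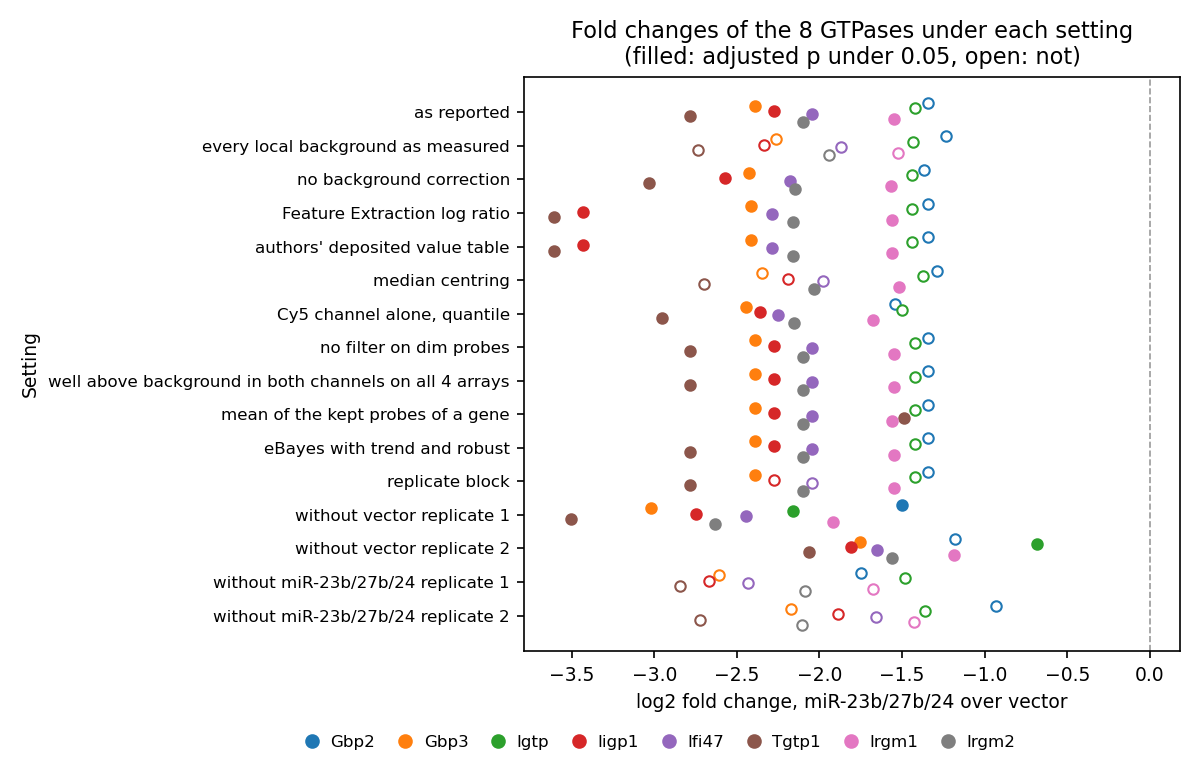
Log2 fold change of miR-23b/27b/24 over vector for each of the 8 genes as reported and under each alternative setting, filled where the adjusted p was under 0.05. Every point lies below 0, and no point is filled with local backgrounds as measured or without either miR-23b/27b/24 array.

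A further list held 24 other names, of the 2 families but with the giant GTPase Gvin1, of neither family, among them. Of these, 12 had a probe and 9 could be tested. Of the 9 tested, Gvin1 included, 2 were called lower and 0 higher, with a median log2 fold change of -0.94. Gbp2b, the gene once called Gbp1, read 0.86 and 0.16 in miR-23b/27b/24 cells, against 1.95 and 2.22 in vector cells, a log2 fold change of -1.58 (limma adjusted p = 0.0346). Gbp9 read -0.68 and -1.01 in miR-23b/27b/24 cells, against 0.22 and 0.86 in vector cells, a log2 fold change of -1.38 (limma adjusted p = 0.0426). A second Gbp9 probe, at -0.31, was not called. The giant interferon-inducible GTPase Gvin1, singled out after its values were seen, was not called in the gene fit, which takes its brightest probe (-1.56, limma adjusted p = 0.0531). In the fit over all probes the same probe was called lower (adjusted p = 0.0471), as were its other probes, with log2 fold changes of -3.94 and -3.32. Both calls of this list were lost under median centring and under local backgrounds taken as measured. The difference between these genes and the 8 GTPases was not tested.

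Upstream of the GTPases, the interferon genes themselves gave no call: 0 of 5 tested ligand genes were lower or higher at an adjusted p under 0.05, and none had an unadjusted p under 0.05. The nearest to a difference were Ifna13 (log2 fold change -0.17, limma adjusted p = 0.442) and Ifna2 (-0.04, adjusted p = 0.862). Ifnb1 was well above background in Cy5 on 1 of the 4 arrays and was not tested. The 6 ligand genes with a probe were dim, with summed Cy5 of 823 to 845 in miR-23b/27b/24 cells, against 888 to 895 in vector cells. Ifng and Ifna4 were well above background in Cy5 on 1 of the 2 miR-23b/27b/24 arrays. A change at spots this dim could be missed, so the lack of a call does not show unchanged interferon expression. Of 17 receptor and signalling genes, 4 were called lower and 1 higher. Stat2, a subunit of the factor that binds the ISRE, read -1.34 and -1.32 in miR-23b/27b/24 cells, against 0.92 and 1.33 in vector cells, a log2 fold change of -2.45 (limma adjusted p = 0.00535). Irf9, the DNA-binding subunit of the same factor, fell by 1.76 in log2 (limma adjusted p = 0.0109), but lost its call under local backgrounds taken as measured (adjusted p = 0.0586). A second Irf9 probe, at -0.66, was not called (adjusted p = 0.0917 over all probes). Ifnar2, a chain of the type I interferon receptor, fell by 1.27 (adjusted p = 0.00927), and Irf1, an interferon-induced transcription factor, fell by 1.20 (adjusted p = 0.0123). A second Irf1 probe, at -0.35, was not called (limma adjusted p = 0.350 over all probes), and the mean of the pair missed the threshold (-0.78, adjusted p = 0.0501). Socs1, an inhibitor of this signalling named after its values were seen, was the gene called higher (0.78, adjusted p = 0.0485). All 4 lower calls were lost when either miR-23b/27b/24 array was left out. The median log2 fold change was -0.48 over these 17 genes and -0.02 over the 5 ligand genes.

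Of the signalling genes, 9 of 17 were lower on vector replicate 1 than on replicate 2, as were 13 of 13 antiviral effectors and 11 of 12 genes of MHC class I presentation. The antiviral effectors are interferon-induced genes that act on viral RNA, proteins or budding, and include the dynamin-like GTPase Mx2. Of the 13 tested, 8 were called lower and 0 higher, with a median log2 fold change of -2.04. Ifit1, which binds foreign RNA, read -0.95 and -1.15 in miR-23b/27b/24 cells, against 1.17 and 2.78 in vector cells, a log2 fold change of -3.02 (limma adjusted p = 0.0379). Oasl2 (-3.01), Mx2 (-2.97) and Bst2 (-2.56), which holds budding virus at the cell surface, were also called. Without vector replicate 1 and without vector replicate 2 the log2 fold changes were -3.83 and -2.22 for Ifit1, -3.63 and -2.39 for Oasl2, -3.81 and -2.13 for Mx2, and -3.19 and -1.92 for Bst2. This count was 1 with every local background as measured, 3 with median centring, 13 without vector replicate 1 and 0 without either miR-23b/27b/24 array. Of the 12 MHC class I genes, 0 were called by limma, while 2 had an unadjusted p under 0.05. They were Psmb10, an immunoproteasome subunit (-0.99, adjusted p = 0.0752), and the peptide loading factor Tapbp (-0.76, adjusted p = 0.0722). Both were called with median centring, and the median of the 12 was -0.31.

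**Figure D5:**
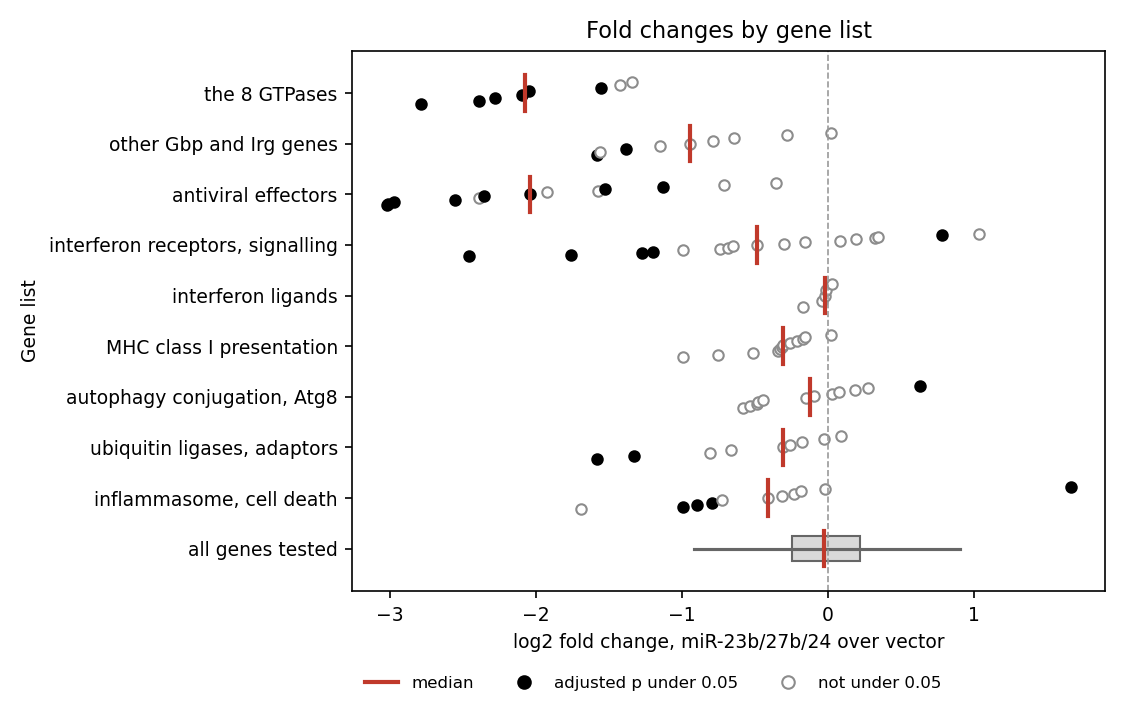
Log2 fold change of miR-23b/27b/24 over vector for the 8 GTPases and the tested genes of 8 other lists, cell type markers left out (filled where the adjusted p was under 0.05), with red lines at list medians, and below them all genes tested as a box from the 25th to the 75th percentile with lines from the 5th to the 95th percentile. The medians of the 8 GTPases and of the antiviral effectors, -2.07 and -2.04, lie left of those of the other lists plotted, and the mammary epithelial markers, which are not plotted, had a median of -2.18.

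Of 32 tested genes from 3 lists of genes that work with or downstream of the GTPases, 7 were called, or 21.9%, against 9.42% of all genes tested. The autophagy conjugation genes, such as Atg5, Atg7 and Atg16l1, are needed in mice for the effectors to load. Of 12 tested, 0 were called lower and 1 higher, Map1lc3a, an Atg8 family member (0.63, limma adjusted p = 0.0432), with a median of -0.12. Of 9 ubiquitin ligases and adaptors, 2 were called lower, with a median of -0.31. They were Ubqln1, a shuttle for ubiquitinated proteins (-1.58, adjusted p = 0.00792), and Lgals8, a galectin that senses broken vacuoles (-1.33, adjusted p = 0.00915). Of 11 inflammasome and cell death genes, 3 were called lower, with a median of -0.41. They were Mlkl, the executor of necroptosis (-0.99, adjusted p = 0.0161), and the cytokines Il18 (-0.90, adjusted p = 0.0340) and Il1b (-0.79, adjusted p = 0.0344). Il1b was well above background in Cy5 on 1 of the 2 miR-23b/27b/24 arrays and on both vector arrays, and its log2 fold change was -2.06 on the Feature Extraction log ratio. Casp1, the protease that activates both cytokines, was called higher, at 1.24 and 1.43 in miR-23b/27b/24 cells, against 0.13 and -0.78 in vector cells (log2 fold change 1.66, adjusted p = 0.0453). All 7 of these calls were lost when either miR-23b/27b/24 array was left out, and those of Map1lc3a, Casp1, Il18 and Il1b were also lost under local backgrounds taken as measured.

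The genes whose profile over the 4 arrays was nearest to the mean of the 8 GTPases were sought among 14484 genes well above background on all arrays. The measure was the Euclidean distance between ratios centred on each gene's mean, over 4 arrays of 2 groups. The nearest were Oas1a (0.172) and Oasl1 (0.193), both of the oligoadenylate synthetase family. The next were Ablim1, an actin-binding protein (0.356), Hs6st1, a heparan sulphate sulphotransferase (0.389), and Zbp1, a sensor of Z-form nucleic acid (0.395). The GTPases themselves lay between 0.306 (Ifi47) and 0.878 (Tgtp1) from their own mean, so that Oas1a and Oasl1 were nearer to it than any single member. Both were picked as the nearest of 14484 genes and the members were not, so no closer likeness is read from this. Oas1a and Ablim1 were called lower, with log2 fold changes of -2.04 and -1.97 (limma adjusted p = 0.0490 and 0.0185), and Oasl1, Hs6st1 and Zbp1 were not called. Under local backgrounds taken as measured Oas1a lost its call (adjusted p = 0.100) and Ablim1 kept it (adjusted p = 0.0273).

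Markers of cell types were read beside these results. Of 6 mammary epithelial markers all were tested and 4 were called lower: Krt7, Epcam, Cdh1 and Krt14, with log2 fold changes of -4.49, -3.61, -2.95 and -1.24. The other members, Krt18 (-1.40) and Krt8 (0.30), were not called. Cdh1 lost its call under local backgrounds taken as measured (-2.17, adjusted p = 0.138 by limma) and on the Feature Extraction log ratio (-2.06, adjusted p = 0.0607). The summed Cy5 intensity of the 6 was 118119 to 143278 in miR-23b/27b/24 cells, against 260186 to 343020 in vector cells. Of 7 markers of macrophages and monocytes 6 could be tested and 1, Cd68, was called lower (-1.68), with sums of 5508 to 6476 in miR-23b/27b/24 cells, against 5424 to 6851 in vector cells, and Itgam was not well above background on any array. Of 7 markers of T and NK cells 5 could be tested and 1, Il2rb, was called higher (0.92, a call lost under backgrounds as measured), with sums of 1319 to 1382 in miR-23b/27b/24 cells, against 1190 to 1273 in vector cells, and Cd3d was not well above background on any array. Of 5 tested fibroblast markers and 4 tested endothelial markers 0 were called, with sums of 13978 to 15568 and 590.2 to 592.5 in miR-23b/27b/24 cells, against 11815 to 14880.4 and 609.4 to 626 in vector cells. Fap, of the fibroblast list, was not well above background on any array. The part of the 4 lower epithelial markers in the GTPase result was not tested. In such bulk RNA fewer expressing cells and less RNA per cell cannot be told apart.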

How the data were processed

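Total RNA of 4 samples of 4TO7 cells (2 per group) was hybridised with Cy3-labelled reference RNA, with no dye swap per the labels. Agilent Feature Extraction 9.5.3.1, per the file headers, gave the deposited intensity of each spot in both channels, its local background and the log10 ratio of Cy5 over Cy3. The authors' deposited value table holds log2 values. Set against the scanner values, it was that ratio centred on each probe's median, with 87.3% to 87.8% of values within 0.001 and column medians of 0.0221 and -0.0149 (miR-23b/27b/24) and 0.0133 and -0.0172 (vector).

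Mean signals were background-corrected by normexp (offset 50) in limma 3.58.1 under R 4.3.3. Local backgrounds that Feature Extraction marked as outliers, 1782 to 1976 Cy5 spots per array, were set beforehand to the array's median, a choice made with results of both forms known. Loess within arrays followed, with control spots at weight 0. Outlier and control spots were left out. The filter took probes whose Cy5 was well above background on both miR-23b/27b/24 or both vector arrays, and the brightest such probe stood for its gene. The two-sided test was lmFit with eBayes (residual df 2, prior df 2.83) at a Benjamini-Hochberg adjusted p under 0.05. The fit was tested on simulated data. Of 41174 probes, a RefSeq table (GRCm38.p6, for names alone) gave 22951 names by accession, 6659 by symbol and 3109 by synonym, and 8455 stayed as in the files. Array number limits the precision.

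The members and gene lists were chosen with earlier results of these data known. Named genes were the 8 members with every probe, per list up to 4 called genes by size of change (with none called, the 2 of smallest p), called markers, and the 5 genes of nearest profile, without RIKEN, clone, predicted or accession names. Alternatives covered background, scaling, filter, probe choice, moderation, the replicate number as a block, and each array left out in turn. Replicate numbers were not taken as pairs in the main fit.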

Additional observations from a re-analysis of the deposited data

How the results depend on the processing

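Of 15 alternative settings, each of the 8 GTPases kept a negative log2 fold change in all, and no called gene named here turned its direction. For the 8 GTPases the sign was fixed in advance with 1 array left out, and with only the moderation or block changed. With every local background as measured, 639 genes were called in place of 1931, 887 probes in place of 2962 and 0 GTPases in place of 6. Median centring gave 1263 genes and 2 GTPases. Leaving out 1 array gave 222 to 4586 genes, 252 to 6858 probes, 0 to 8 GTPases, and medians of the 8 log2 fold changes between -2.54 and -1.61. The low ends of these counts came without a miR-23b/27b/24 array and the high ends without vector replicate 1, and a lone array is then assumed to have the spread of the other group. The GTPase count was 6 with no background correction, the Feature Extraction log ratio, the authors' table, Cy5 alone, either other filter, the mean of a gene's probes and trend with robust moderation. The replicate numbers were not taken as pairs. The differences between replicates 1 and 2 of both groups correlated at 0.0465 across 20498 genes, which cannot show whether samples were prepared in pairs. The fit with the replicate block gave 1762 genes, 3281 probes and 4 GTPases. Across the 8 GTPases, 93 gene and setting pairs kept their side of the threshold, 24 lost it and 3 gained it. For the other named genes these were 396, 82 and 16. Slide and scan could not be run as a block, since all arrays share 1 slide and 1 scan. The causes of these shifts were not tested. Signal over background limits the dim spots: mean Cy5 signals were down to 66.9 for Iigp1 and 99.2 for the brighter Tgtp1 probe in miR-23b/27b/24 cells.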
